A study of Mus musculus with 36 samples.

Results

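The proteasome genes described here are those whose symbol on the array reads Psma, Psmb, Psmc, Psmd or Psme followed by a digit, without the immunoproteasome subunits Psmb8 and Psmb9. The rule took 43 of the 19053 genes named on the array, and 38 of them had a probe detected on at least 6 of the 36 arrays, out of 10281 genes with such a probe. Liver RNA came from male mice at 20 weeks of age, 6 per diet, and each mouse had its own array on an Illumina MouseWG-6 v2.0 beadchip. The strain is C57BL/6J in the sample labels and C57BL/6JBomTac in the design text, and no mouse carried a transgene or drug treatment by either source. For 13 weeks the mice ate a low-fat diet (10% of energy as fat), a high-fat diet (45%), or the latter with a freeze-dried berry mixed in at 20% of its weight, which was lingonberry, blackcurrant, bilberry or açai, so that the berry diets shared the high fat content. Each of the 6 chips carried 1 array of every diet at a place that was fixed for the diet, and the place on the chip and the diet cannot be told apart.

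The proteasome is the protease that degrades ubiquitin-tagged proteins in the cytosol and nucleus. Its barrel-shaped core particle is built of alpha rings, which gate the entry, and beta rings, which hold the proteolytic sites. A regulatory particle on its end, made of a ring of ATPases and a set of non-ATPase subunits, binds the ubiquitin chain, removes it and unfolds the substrate. Other caps, the activators, open the gate without ubiquitin, and under interferon the catalytic beta subunits are replaced by those of the immunoproteasome. In liver, as in other tissues, the subunits are regarded as housekeeping genes whose transcription can be raised together by the factor Nfe2l1 when proteasome activity falls.

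Of the 43 genes, 8 belong to the alpha rings, 9 to the beta rings, 6 are ATPases and 11 are non-ATPase subunits. Another 3 (Psmd5, Psmd9 and Psmd10) are chaperones that assemble the ATPase ring and leave it, and 4 (Psme1 to Psme4) are activators. The remaining 2, Psmc3ip and Psme3ip1, are named after proteins they bind and are no proteasome subunits, so the symbol rule is wider than its label. Of the alpha ring genes 5 were tested, and Psma1, Psma3 and Psma6 were not, with detection on 0 of 36 arrays for the probe of each. Psmb11, the beta subunit of the thymus, was detected on 0 arrays, and the non-ATPase subunit Psmd3 on 1 array at its better probe. No level is given for these 5 genes: a probe near the background does not show that its transcript is missing, and the alpha ring is built from Psma1, Psma3 and Psma6 as well. Psma8, the alpha subunit of the testis, was tested with detection on 22 arrays, and Psmc3ip with detection on 12.

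A gene with several probes is represented by its brightest one, and levels are normalized log2 intensities, which are not compared between genes. Hepatocyte transcripts were high in all livers: the mean over 6 hepatocyte markers, Alb and Ttr among them, ran from 12.73 to 13.01 (median 12.90) in low-fat livers. In high-fat livers it ran from 12.49 to 12.86 (median 12.63), and in berry livers from 12.43 to 12.87 (medians 12.63 to 12.73). The low-fat livers were thus the highest by their median and overlapped with every other diet, and this difference runs beside all comparisons with the low-fat diet below; its part in them was not tested. Transcripts of the exocrine pancreas stood out on 6 arrays, where the mean over 12 of 13 markers ran from 7.59 to 9.77, against at most 5.94 on the other arrays. These were 2 arrays on açai (replicates 4 and 6) and 1 each on lingonberry (replicate 2), blackcurrant (replicate 3), bilberry (replicate 2) and low fat (replicate 6). Results that change without them are given below with the value. In whole liver, fewer cells of a type and less RNA per cell cannot be told apart.

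The first comparison asks what dietary fat changed in these genes. At the brightest probe, limma called 0 of 38 genes at an adjusted p below 0.05, where 3.73% of all genes tested were called. At an unadjusted p below 0.05 there was 1 gene, Psmd2, where the share over all genes was 16.6%. With the chip as a block in the fit, which compares mice on the same chip, Psmd2 was called, 1 of 38 against 6.39% of all genes. The differences ran from -0.55 to 0.31 on the log2 scale with a median of 0.04, against 0.00 over all genes, and 23 of 38 lay above 0. The 95% intervals of 34 genes lay within 0.5 on either side of 0 and those of all 38 within 1.

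The berry comparisons ask what each berry changed at the same fat content, and they share the high-fat arrays. limma called 0 of 38 genes for lingonberry (2.61% of all genes), 0 for blackcurrant (0.165%), 0 for bilberry (0.457%) and 0 for açai (0.0681%). With the chip as a block it also called 0 in each of these, against 4.55%, 0.233%, 0.72% and 0.156% of all genes. At an unadjusted p below 0.05 there were 2 genes for lingonberry, 2 for blackcurrant, 1 for bilberry and 1 for açai, where the shares over all genes were 15.7%, 9.14%, 8.67% and 6.64%. The median differences were 0.01, 0.06, 0.01 and 0.00 in the same order. For blackcurrant 28 of 38 differences lay above 0, against 48.7% of all genes. Among them were those of all 8 beta ring genes and all 6 ATPases, and the largest of these 14 was 0.22 (Psmb10). Core genes correlated from liver to liver, as given below, so their signs are not independent.

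Against the low-fat diet, whose arrays these comparisons share, limma called 0 of 38 genes for lingonberry (3.49% of all genes), blackcurrant (2.48%), bilberry (1.78%) and açai (7.25%). With the chip as a block it called 2 for blackcurrant (4.6% of all genes), Psmc3 and Psmc4, 1 for açai (11.2%), Psme4, and 0 for lingonberry (5.34%) and bilberry (3.3%). Unadjusted p-values below 0.05 were met by 8 of 38 genes for blackcurrant, 7 of them with a positive difference, and by 2, 4 and 3 genes for lingonberry, bilberry and açai. Over all genes these shares were 15.8%, 15.2%, 12.6% and 21%, in the order blackcurrant, lingonberry, bilberry and açai. The median difference was 0.10 for blackcurrant and between 0.05 and 0.08 for the other berries.

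**Figure D1:**
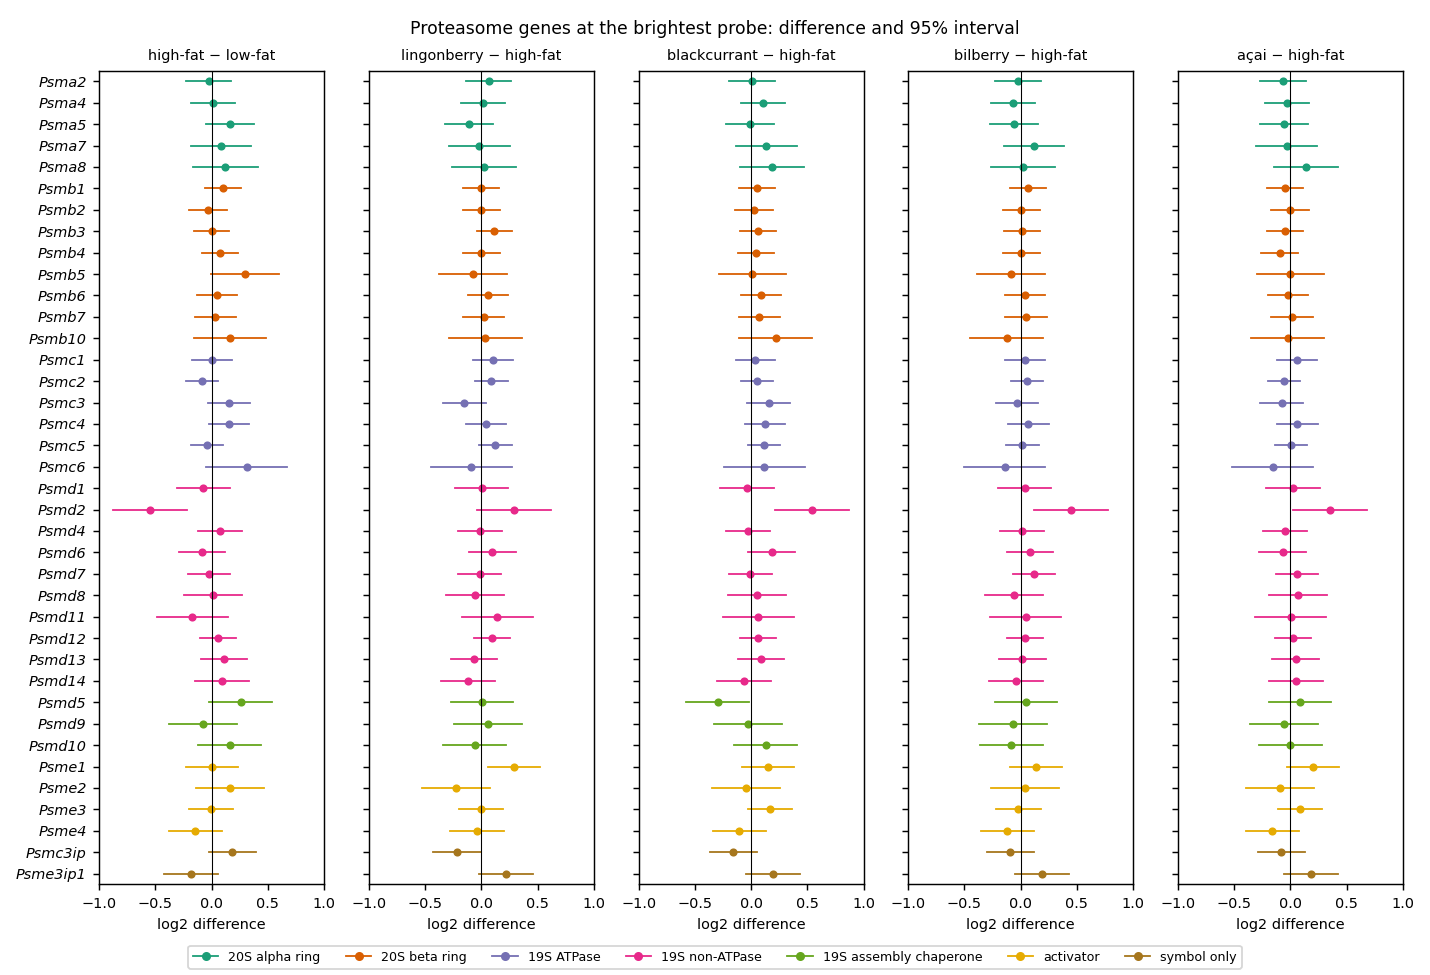
Log2 difference (x axis) of each of the 38 genes (y axis, coloured by role) for high-fat against low-fat and for each berry diet against high-fat. Points are limma differences at the brightest probe and bars their 95% intervals; nearly all sit near 0, and Psmd2 stands lowest for high-fat against low-fat with -0.55.

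Among the core genes the catalytic subunits come first. Psmb6, which cleaves after acidic residues, ran in low-fat livers from 11.25 to 11.64 (median 11.49) and in high-fat livers from 11.40 to 11.63 (median 11.49). Psmb7, which cleaves after basic residues, ran from 11.19 to 11.64 (median 11.38) and from 11.33 to 11.52 (median 11.42). For both genes the high-fat range lay within the low-fat range, with differences of 0.05 ± 0.09 and 0.03 ± 0.09 (log2 difference ± SE, as below). Psmb5, the site of chymotrypsin-like cleavage and the main target of proteasome inhibitor drugs, ran from 7.84 to 8.57 (median 8.34) in low-fat and from 8.27 to 8.76 (median 8.68) in high-fat livers. The low-fat livers reached lower, and the groups overlapped. Its difference of 0.30 ± 0.15 did not pass (limma adjusted p = 0.328). The other probes of Psmb6 and Psmb7, 4 in all, gave 0.09 to 0.12 for the same comparison and none was called.

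The promoters of Psmb5 and Psmb6 are shown because both hold the core letters of the antioxidant response element, TGACNNNGC, to which NRF2 and the proteasome factor Nfe2l1 bind. The sequences are from RefSeq, run from 250 bases before to 50 after the start site and carry the motif in capitals, on the strand shown in both.
Psmb5, GRCm38.p6 chr14:54617946-54618245, minus strand: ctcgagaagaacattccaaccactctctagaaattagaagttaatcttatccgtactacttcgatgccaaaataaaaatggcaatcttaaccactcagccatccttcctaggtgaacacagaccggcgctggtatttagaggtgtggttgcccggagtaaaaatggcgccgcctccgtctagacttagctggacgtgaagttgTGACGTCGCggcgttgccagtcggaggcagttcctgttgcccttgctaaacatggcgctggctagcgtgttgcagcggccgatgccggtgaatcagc
Psmb6, GRCm38.p6 chr11:70525107-70525406, plus strand: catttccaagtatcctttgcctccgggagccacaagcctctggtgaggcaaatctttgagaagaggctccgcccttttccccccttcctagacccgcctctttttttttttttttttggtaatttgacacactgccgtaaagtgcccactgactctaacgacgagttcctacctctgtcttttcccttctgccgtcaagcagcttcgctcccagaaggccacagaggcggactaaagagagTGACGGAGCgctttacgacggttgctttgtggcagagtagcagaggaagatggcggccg
On either strand these letters occurred in 6 of 40 promoters of 36 matched proteasome genes (15%) and in 12.4% of 32851 mouse promoters of the same length. The other holders were Psmc6, Psmd12, Psmd9 and Psme4. A match is a run of letters and no measured site.

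Some genes that NRF2 is known to switch on changed between diets on the same arrays. Of 10 listed, 7 were tested, and 2 rose from low-fat to high-fat, where 3.73% of all genes were called: Srxn1, which repairs oxidized peroxiredoxins, by 0.62 (limma adjusted p = 0.0160), and Nqo1, a quinone reductase, by 0.55 (limma adjusted p = 0.0247). Under açai Srxn1 stood 0.996 above the low-fat level (limma adjusted p = 2.41e-05), while Psmb5 and Psmb6 differed by 0.30 and 0.03 from it and were not called. Gclm, which supplies glutathione synthesis, rose by 0.66 from low-fat to lingonberry (limma adjusted p = 0.000136), and Me1, which makes NADPH, fell by 1.16 from low-fat to blackcurrant (limma adjusted p = 0.000626). Against low-fat the calls were 2 of 7 for lingonberry (3.49% of all genes), 1 for blackcurrant (2.48%), 0 for bilberry (1.78%) and 2 for açai (7.25%). Against high-fat limma called 0 for each berry, with 1 to 3 of 7 at an unadjusted p below 0.05, where the shares over all genes were 6.64% to 15.7%. The median difference of the 7 genes was 0.10 for high-fat against low-fat, against 0.00 over all genes. Against the mean of the other berries 2 of 7 were called for açai, against 3% of all genes. Srxn1 lay 0.53 and Me1 0.65 higher there (limma adjusted p = 0.0114 and 0.0223). Whether the difference between the NRF2 genes and the proteasome genes is larger than its error was not tested.

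The beta ring gene with the steadiest level was Psmb3, with an SD of 0.11 within diets, and that with the widest was Psmb10, with 0.29. Psmb10 is the immunoproteasome counterpart of Psmb7 and is described with Psmb8 and Psmb9 below. Of the alpha ring, Psma4 had the smallest SD (0.15) and Psma8 the largest (0.25). At their brightest probes the alpha ring genes differed by -0.03 to 0.16 between high-fat and low-fat. The dimmer probe of Psma5 gave -0.33 ± 0.20 (limma adjusted p = 0.456), where its brightest gave 0.16. That of Psma7 gave 0.14, and neither was called. Psma2, Psma4, Psma5 and Psma7 were detected on all 36 arrays, whereas Psma8 lay between 4.42 and 5.25, near the background.

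**Figure D2:**
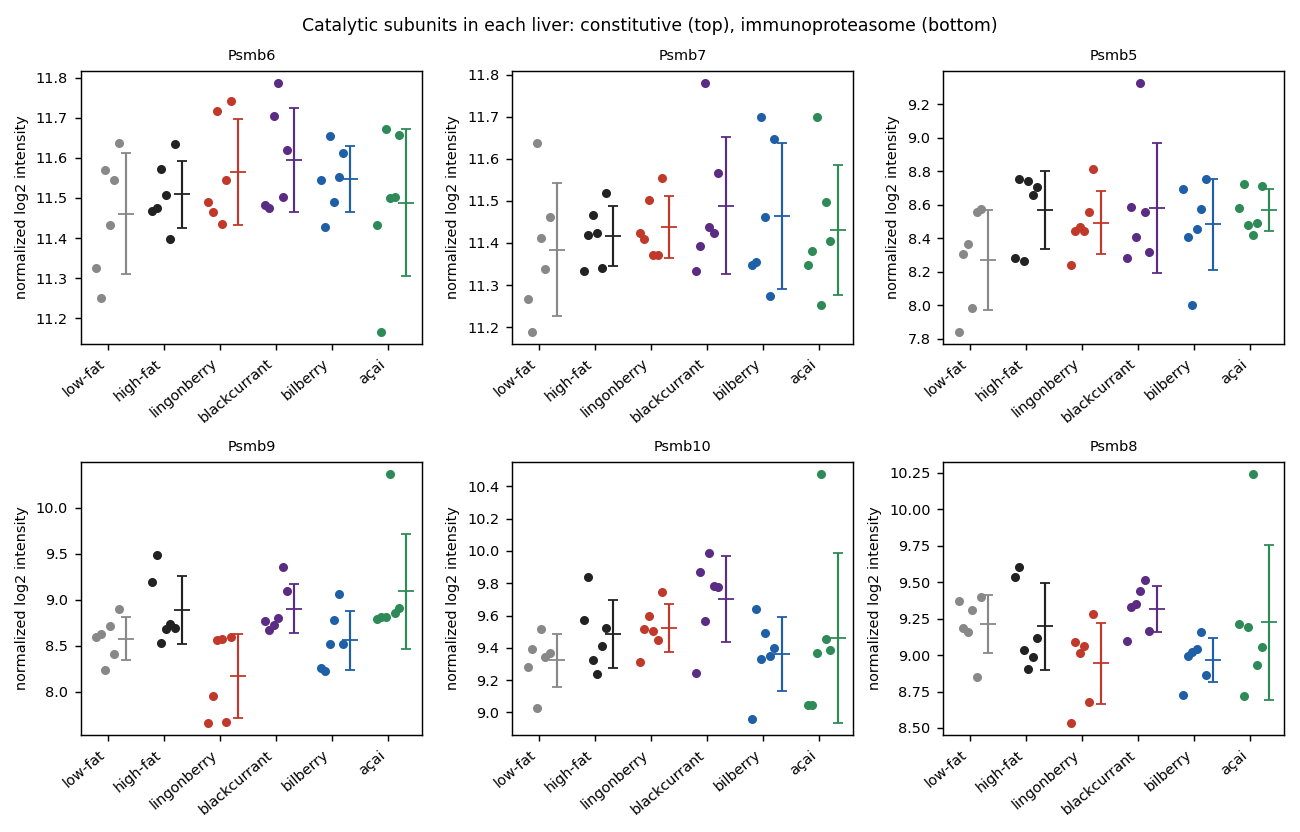
Normalized log2 intensity (y axis) of the constitutive catalytic subunits Psmb6, Psmb7 and Psmb5 (top) and their immunoproteasome counterparts Psmb9, Psmb10 and Psmb8 (bottom) in each liver by diet (x axis). Points are mice, horizontal lines with bars are the mean and SD of 6 mice; 1 açai liver stands high in the bottom panels, at 10.4, 10.5 and 10.2, and not in the top panels.

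Of the ATPases, which pull the substrate into the core, Psmc3 and Psmc4 came nearest to a difference. Psmc3 ran from 9.21 to 9.50 (median 9.29) in low-fat, from 9.34 to 9.57 (median 9.47) in high-fat and from 9.29 to 9.85 (median 9.62) in blackcurrant livers. It ran from 9.03 to 9.58 (median 9.34) under lingonberry, from 9.36 to 9.50 (median 9.42) under bilberry and from 9.07 to 9.58 (median 9.43) under açai. Blackcurrant livers reached highest, and their range overlapped that of every other diet. Blackcurrant lay 0.31 ± 0.09 above low-fat, in 5 of 6 chips, with a limma adjusted p of 0.0730, and the fit with the chip as a block called it (limma adjusted p = 0.0196). Lingonberry lay 0.31 ± 0.09 below blackcurrant, in 6 of 6 chips, with a limma adjusted p of 0.114, and of 0.0341 with the chip as a block. That call was 1 of 38 genes against 2.04% of all genes, and without the block it was 0 against 1.12%.

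Psmc4, whose product is the docking site of gankyrin in the assembling ring, ran from 10.16 to 10.46 (median 10.29) in low-fat livers and from 10.32 to 10.84 (median 10.52) in blackcurrant livers. Low-fat livers made up the lower end, and the groups overlapped. The difference was 0.27 ± 0.09 (limma adjusted p = 0.0981, and 0.0498 with the chip as a block). Against the same low-fat arrays Psmc4 stood 0.15 higher under high-fat, 0.19 under lingonberry, 0.22 under bilberry and 0.21 under açai, none of them called. Psmc6 had the largest difference of the ring, 0.43 ± 0.18 for blackcurrant against low-fat, and also its largest SD within diets (0.32), while Psmc2 had the smallest (0.09). Psmc6 was not called with or without the block (limma adjusted p = 0.232 and 0.0677).

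Psmd2, the non-ATPase subunit at which shuttle proteins with ubiquitinated cargo dock, was the gene with the lowest p for high-fat against low-fat. It ran from 5.08 to 6.18 (median 5.34) in low-fat livers and from 4.53 to 5.19 (median 4.97) in high-fat livers. Under the berries it ran from 4.91 to 5.56 (median 5.20) for lingonberry, 4.97 to 5.81 (median 5.46) for blackcurrant, 4.89 to 5.74 (median 5.40) for bilberry and 5.02 to 5.56 (median 5.24) for açai. High-fat livers were the lowest, and every pair of diets overlapped. High-fat lay 0.55 ± 0.16 below low-fat, in 6 of 6 chips with differences between -1.46 and -0.09, at a limma adjusted p of 0.0516, and of 0.0121 with the chip as a block. Against the same high-fat arrays the differences were 0.29, 0.54, 0.45 and 0.35 for lingonberry, blackcurrant, bilberry and açai, positive on 6 of 6 chips for each berry, and none was called with or without the block. The probe is dim, with detection on 35 arrays, and a second probe, detected on 5 arrays, was not tested. Without chip 2 the difference for high-fat against low-fat was -0.37 (limma adjusted p = 0.288), and without any background correction it was -0.19 (limma adjusted p = 0.0753). The hepatocyte marker mean was also higher in low-fat livers, with medians of 12.90 against 12.63, and its part in the difference was not tested.

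Psmd11, a scaffold subunit of the lid that has been linked to raised proteasome assembly in stem cells, had a call at its dimmer probe only with the chip as a block. That probe ran from 6.99 to 7.90 (median 7.56) in low-fat, from 6.67 to 7.51 (median 7.26) in high-fat and from 7.27 to 8.18 (median 7.57) in lingonberry livers. High-fat livers reached lowest, and all 3 ranges overlapped. High-fat lay 0.36 ± 0.17 below low-fat (limma adjusted p = 0.282, and 0.0224 with the block), and lingonberry 0.43 ± 0.17 above high-fat (0.185, and 0.00855 with the block). The brightest probe gave -0.17 and 0.14 for these and was called in neither fit. With the block the calls of proteasome probes were 3 of 62 for high-fat against low-fat (5.86% of all probes) and 2 of 62 for lingonberry against high-fat (4%). Among the other non-ATPase subunits, Psmd12 had the smallest SD within diets (0.11) and Psmd2 the largest (0.29). Psmd14, the subunit that cuts off the ubiquitin chain, and Psmd4, a ubiquitin receptor, differed by at most 0.17 and 0.08 between any diet means at their brightest probes. The dimmer probe of Psmd14 gave up to 0.27 ± 0.10, for açai above low-fat in 5 of 6 chips, and was not called (limma adjusted p = 0.117). Psmd4 has no other tested probe.

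**Figure D3:**
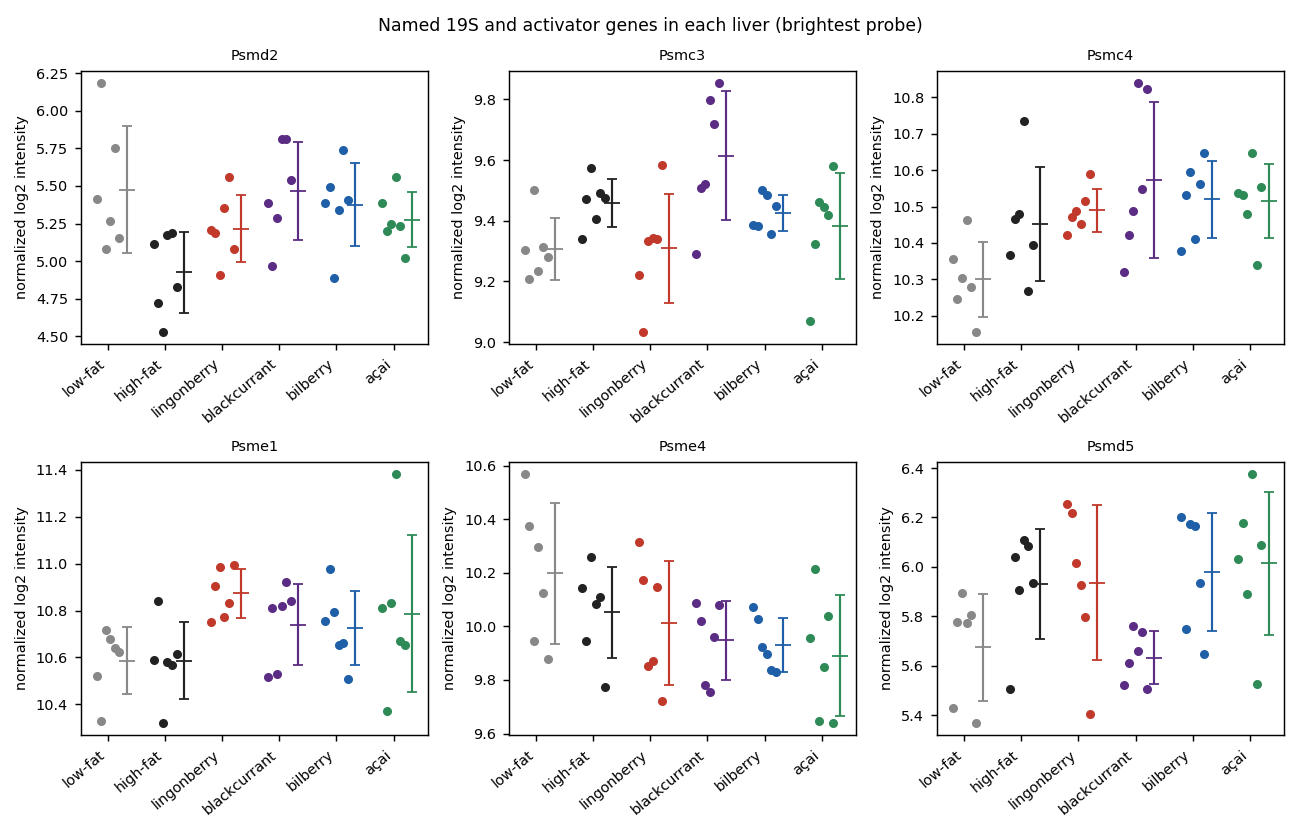
Normalized log2 intensity (y axis) of Psmd2, Psmc3, Psmc4, Psme1, Psme4 and Psmd5 at the brightest probe in each liver by diet (x axis). Points are mice, horizontal lines with bars are the mean and SD of 6 mice; the means differ by 0.27 to 0.55 between the highest and the lowest diet and the points overlap for most pairs of diets.

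Psmd10, or gankyrin, is the assembly chaperone known as an oncoprotein of liver cancer, and it was the only gene of the rule with a probe called in the fit without the block. It has 3 tested probes, whose values correlated with each other at r = 0.62 to 0.76 over the 36 arrays. The middle probe by brightness ran from 7.89 to 8.21 (median 8.11) in low-fat livers and from 8.22 to 8.71 (median 8.42) in high-fat livers. Under the berries it ran from 8.14 to 8.77 (median 8.33) for lingonberry, 8.12 to 8.73 (median 8.51) for blackcurrant, 8.20 to 8.42 (median 8.34) for bilberry and 8.33 to 8.59 (median 8.45) for açai. All low-fat livers lay below all high-fat and all açai livers, and they overlapped with the other berries by their upper end. Ranges that did not overlap were met by 1 of 62 probes of proteasome genes in each of these 2 comparisons, against 1.61% and 3.1% of all probes.

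At that probe Psmd10 rose by 0.36 ± 0.10 from low-fat to high-fat, in 6 of 6 chips (limma adjusted p = 0.0390, and 0.00424 with the chip as a block). It rose by 0.40 ± 0.10 from low-fat to blackcurrant (limma adjusted p = 0.0268) and by 0.37 ± 0.10 from low-fat to açai (limma adjusted p = 0.0198). For lingonberry the difference of 0.31 was called only with the block (limma adjusted p = 0.0995 without and 0.0171 with it), and for bilberry it was 0.24 (0.313 and 0.0968). The calls were 1 of 62 probes in each comparison, against 3.31%, 2.31% and 6.47% of all probes for high-fat, blackcurrant and açai. With the block there were 3 for blackcurrant (4.15% of all probes), 2 for açai (10.2%) and 1 for lingonberry against low-fat (4.96%). The brightest probe gave 0.16 ± 0.14, 0.29 ± 0.14 and 0.16 ± 0.14 and the dimmest 0.23 ± 0.16, 0.22 ± 0.16 and 0.19 ± 0.16 for the 3 comparisons, none of them called. All 3 probes thus stood above low-fat in these comparisons, but only the middle one passed.

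The call for high-fat was lost when any 1 of chips 2 to 6 was left out, with limma adjusted p-values of 0.0754 to 0.122, in a fit on these 2 diets alone (0.0969) and when all probes on the array were tested (0.0551). That for blackcurrant was lost without chip 2, 3, 4 or 5 (0.0571 to 0.147), in a fit on these 2 diets alone (0.121), without replicate 4 of that diet (0.0881) and without the 6 arrays of high pancreatic markers (0.0638). That for açai was lost without chip 2, 4 or 5 (0.0503 to 0.0701) and without those 6 arrays (0.0725). The difference itself stayed between 0.29 and 0.44 in these comparisons under every setting tried. The hepatocyte marker mean ran the other way, with a median of 12.90 in low-fat livers against 12.63 in high-fat, 12.71 in blackcurrant and 12.63 in açai livers, and its part in the difference was not tested.

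**Figure D4:**
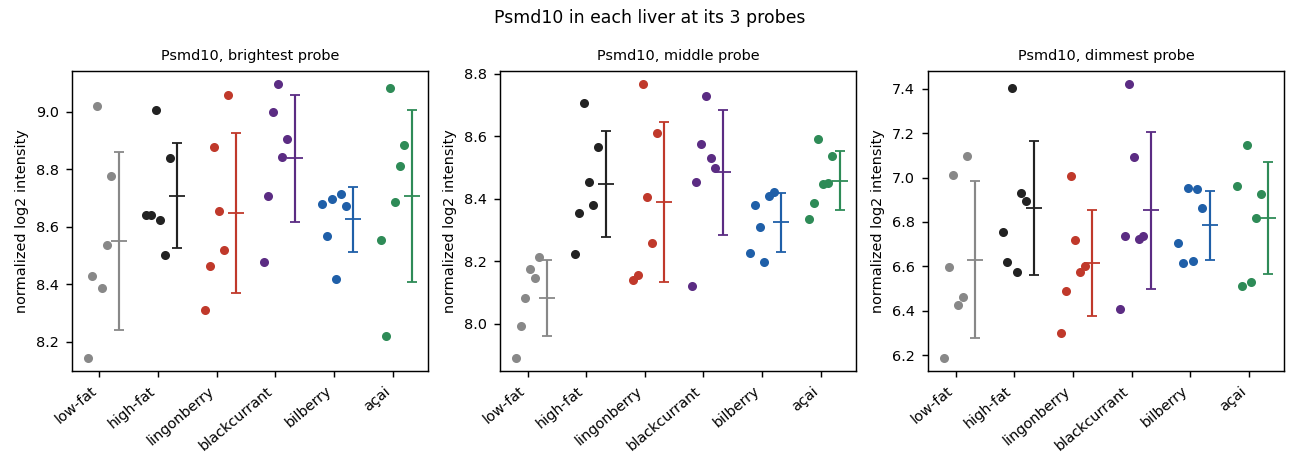
Normalized log2 intensity (y axis) of Psmd10 at its brightest, middle and dimmest probe in each liver by diet (x axis). Points are mice, horizontal lines with bars are the mean and SD of 6 mice; at the middle probe all low-fat livers (7.89 to 8.21) lie below all high-fat livers (8.22 to 8.71), whereas these diets overlap at the other probes.

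The promoter of Psmd10 is shown as that of the gene with calls. It holds CCAAT boxes, the letters bound by the factor NF-Y, in capitals on either strand (CCAAT or its reverse ATTGG).
Psmd10, GRCm38.p6 chrX:140956662-140956961, minus strand: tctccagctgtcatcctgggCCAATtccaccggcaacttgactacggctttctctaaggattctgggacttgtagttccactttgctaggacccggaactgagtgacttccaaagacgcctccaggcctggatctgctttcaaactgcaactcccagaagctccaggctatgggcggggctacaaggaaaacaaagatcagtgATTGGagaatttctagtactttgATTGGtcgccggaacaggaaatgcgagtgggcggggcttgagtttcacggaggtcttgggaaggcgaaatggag
The CCAAT letters occurred in 15 of the 40 matched promoters (37.5%) and in 37.4% of all promoters of this length, a share close to the background.

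The other assembly chaperones did not pass in any comparison. Psmd5 ran from 5.37 to 5.89 (median 5.77) in low-fat, from 5.50 to 6.11 (median 5.99) in high-fat, from 5.51 to 5.76 (median 5.64) in blackcurrant and from 5.53 to 6.37 (median 6.06) in açai livers. Low-fat and blackcurrant livers had the lowest medians, 1 high-fat liver lay below all blackcurrant livers, and all ranges overlapped. Its largest difference, 0.38 ± 0.14 between açai and blackcurrant, had a limma adjusted p of 0.172. At its brightest probe Psmd9 differed by at most 0.14 between any diet means, whereas its dimmer probe gave up to 0.32 ± 0.17, for bilberry above high-fat (limma adjusted p = 0.673). At the brightest probes Psmd9 had the largest SD within diets of the 3 chaperones (0.27).

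Of the activators, Psme1 forms with Psme2 the cap that interferon induces. At its brightest probe Psme1 ran from 10.33 to 10.72 (median 10.63) in low-fat, from 10.32 to 10.84 (median 10.58) in high-fat and from 10.75 to 10.99 (median 10.87) in lingonberry livers. It ran from 10.52 to 10.92 (median 10.81) under blackcurrant, 10.51 to 10.98 (median 10.71) under bilberry and 10.37 to 11.38 (median 10.74) under açai. All lingonberry livers lay above all low-fat livers, and 1 high-fat liver reached into their range. Such a gap between lingonberry and low-fat was met by 1 of 38 genes, against 2.09% of all genes. The difference from low-fat was called in 0 of 21 fits tried, with limma adjusted p-values of 0.109 to 0.417.

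Lingonberry lay 0.29 ± 0.11 above high-fat at this probe, in 6 of 6 chips (limma adjusted p = 0.212). The dimmer probe of Psme1, which followed the brightest at r = 0.80 over the 36 arrays, ran from 8.40 to 9.13 (median 8.91) in high-fat and from 9.09 to 9.52 (median 9.26) in lingonberry livers. Only the highest high-fat liver lay within the lingonberry range. The difference was 0.43 ± 0.14, with a limma adjusted p of 0.0878, of 0.0419 with the chip as a block and of 0.0480 without replicate 4 on açai. Without the 6 arrays of high pancreatic markers it was 0.39 (limma adjusted p = 0.139). For Psme2, the partner, the difference had the other sign: lingonberry lay 0.23 ± 0.15 below high-fat, in 6 of 6 chips, and was not called (limma adjusted p = 0.527).

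The promoter of Psme1 is shown for the core of the interferon-stimulated response element (GAAA and again GAAA, with any 2 bases between), which it holds in reverse just after the start site, in capitals.
Psme1, GRCm38.p6 chr14:55578244-55578543, plus strand: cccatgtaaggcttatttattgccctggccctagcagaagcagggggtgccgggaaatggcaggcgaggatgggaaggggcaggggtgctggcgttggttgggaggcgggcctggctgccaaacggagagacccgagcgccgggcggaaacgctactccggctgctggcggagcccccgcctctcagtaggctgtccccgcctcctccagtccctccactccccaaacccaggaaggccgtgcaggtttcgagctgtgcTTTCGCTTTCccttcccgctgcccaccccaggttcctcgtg
These letters occurred on either strand in 4 of the 40 matched promoters (10%), those of Psmb3, Psmd4, Psmd9 and Psme1, and in 3.44% of all promoters of this length.

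Psme4, an activator with a role in sperm and DNA repair, ran from 9.88 to 10.57 (median 10.21) in low-fat, from 9.77 to 10.26 (median 10.10) in high-fat and from 9.64 to 10.21 (median 9.90) in açai livers. Açai livers reached lowest, and the ranges overlapped. Açai lay 0.31 ± 0.12 below low-fat in 6 of 6 chips, with a limma adjusted p of 0.111, and of 0.0332 with the chip as a block. Bilberry and blackcurrant lay 0.27 and 0.25 below the same low-fat arrays and were not called. The second probe of Psme4 was near the background and correlated with this one at r = 0.06. Psme3, an activator of the nucleus, had the smallest SD within diets of the activators (0.15) and Psme2 the largest (0.27).

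The immunoproteasome subunits were read beside Psmb10. Psmb9 ran from 7.66 to 8.59 (median 8.26) in lingonberry, from 8.53 to 9.49 (median 8.71) in high-fat and from 8.80 to 10.4 (median 8.84) in açai livers. Lingonberry livers were the lowest, overlapped with high-fat by a small margin and did not overlap with açai. Ranges of lingonberry and açai that did not overlap were met by 3.32% of all genes. Psmb9 was lower by 0.92 ± 0.22 under lingonberry than under açai (limma adjusted p = 0.00899), and by 0.67 without replicate 4 on açai (limma adjusted p = 0.0319). Without the 6 arrays of high pancreatic markers it was lower by 0.61 and not called (limma adjusted p = 0.130). Of the 21 fits tried 18 called this difference, so other settings lost the call as well. Against high-fat lingonberry lay 0.72 ± 0.22 lower (limma adjusted p = 0.0715, 0.0506 with the chip as a block and 0.0178 without that açai liver).

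Psmb10 ran from 9.31 to 9.75 (median 9.51) in lingonberry livers and from 9.24 to 9.84 (median 9.47) in high-fat livers, with a difference of 0.04 ± 0.16. Psmb8 lay 0.25 ± 0.17 lower under lingonberry than under high-fat and was not called (limma adjusted p = 0.523). Against açai, Psmb8 lay 0.28 ± 0.17 lower under lingonberry (limma adjusted p = 0.427); whether Psmb9 differed more than Psmb8 was not tested. Replicate 4 on açai had the highest level of the diet in Psmb10 (10.5), Psmb8 (10.2), Psmb9 (10.4) and Psme1 (11.4), together with Irf1 (10.2), a transcription factor of the interferon response. The same array had the highest mean over 6 of 8 listed macrophage markers among the açai livers (8.58) and a pancreatic marker mean of 7.86; their part in these levels was not tested. Of 12 listed genes of the immunoproteasome and antigen presentation 11 were tested, and Psmb9 for lingonberry against açai was the single call over the 16 comparisons. That call was 1 of 11 genes, against 3.82% of all genes.

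The proteasome genes varied less between livers than most genes. Their SD within diets had a median of 0.17, against 0.23 over all genes tested, and the range of their 6 diet means a median of 0.17 against 0.28. Of 38 genes, 27 had an SD and 28 a range below the median of all genes. The test over all 6 diets at once called 0 of 38 genes, against 9.19% of all genes, and 2 with the chip as a block, Psmd2 and Psmc3, against 14.6%. Unadjusted p-values below 0.05 were met by 3 genes, against 23.3% of all genes. The genes were not matched for brightness in this description.

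Levels of the core particle genes correlated from liver to liver. With diet means removed, the median correlation of 2 genes over the 36 arrays was 0.42 among the 13 core genes and 0.17 among the 16 subunits of the regulatory particle. Over all 630 pairs of the 36 subunits, chaperones and activators it was 0.11, against 0.00 over all pairs of genes tested. With the chip means also removed, the core median was 0.20 and that of the regulatory particle 0.10. The closest pair was Psma5 with Psma7 (0.89, and 0.82 without the chip means), and the most opposed was Psmb6 with Psme4 (-0.76 and -0.60). The arrays share their chips and their normalization across pairs, and RNA quality is not given in the labels.

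**Figure D5:**
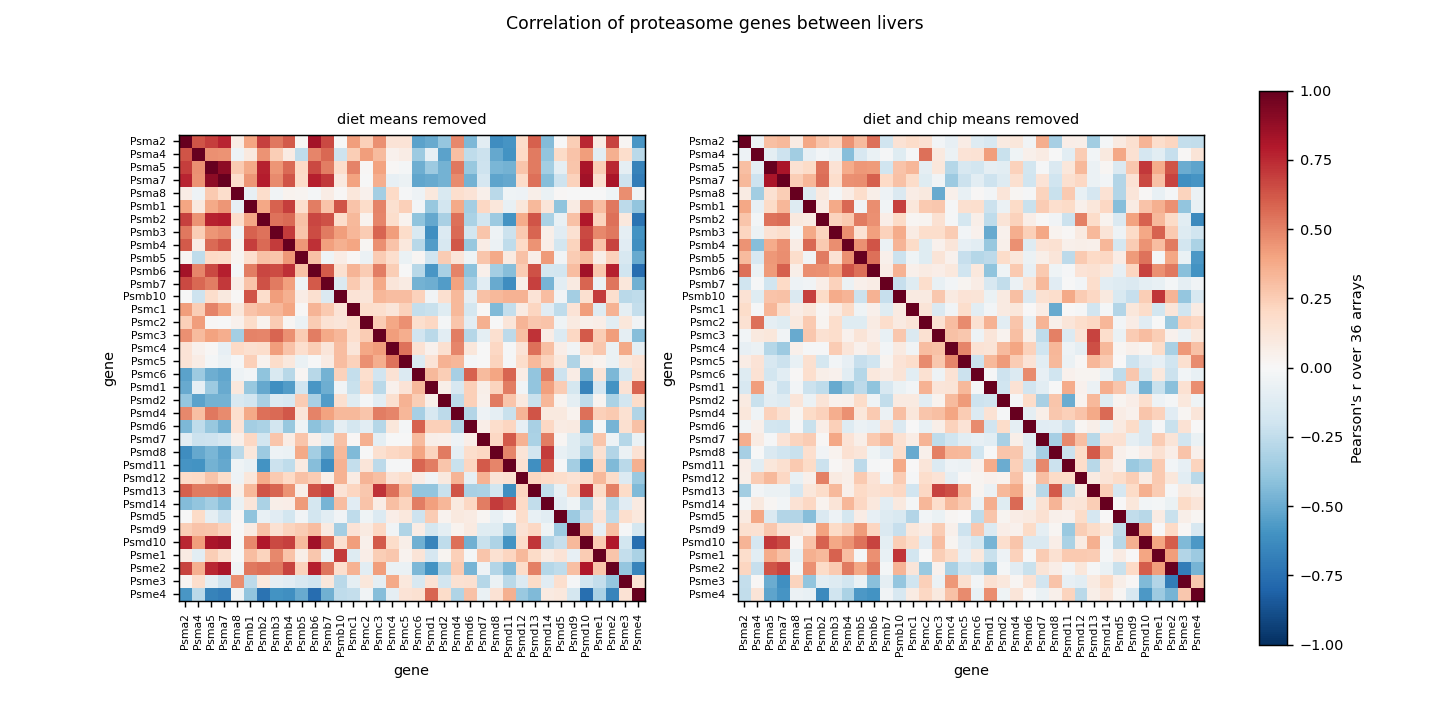
Pearson correlation (colour) of each pair of 36 proteasome genes over 36 arrays, with diet means removed (left) and with diet and chip means removed (right); axes list the genes by role. The core genes at the top left form a block of positive values with a median of 0.42, which falls to 0.20 on the right.

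Several probes of a gene did not always follow each other. Over 30 pairs of probes in 19 genes the median correlation across arrays was 0.43, and 14 pairs exceeded 0.5. The closest were the probes of Psmb10 (0.85), Psma7 (0.83), Psme1 (0.80) and Psmb6 (0.78). Probes of Psma5 (-0.27), Psmd7 (-0.22 for its most opposed pair), Psmd12 (-0.02) and Psmc2 (0.04) did not follow each other, and nor did those of Psme4 (0.06) and Psmd9 (0.13). The remaining genes lay between: Psmd11 (0.66), Psmb2 (0.68), Psmd14 (0.45), Psmd6 (0.33), Psmc5 (0.31) and Psme3ip1 (0.25), with Psmd10 as given above and Psmb7 at 0.40 to 0.72 over its 6 pairs. Of Psmd1, 1 pair of probes reached 0.74, and its remaining probe correlated with these at 0.12 and 0.25. A difference at the brightest probe of such a gene is that of this probe alone.

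The rest of the ubiquitin system held no call in the fit without the block. Of 30 further genes of proteasome assembly, ubiquitin and its receptors 17 were tested, and limma called 0 of them in any of the 16 comparisons. At an unadjusted p below 0.05 there were 3 for high-fat against low-fat, where the share over all genes was 16.6%. In the other comparisons there were 0 to 3, where the shares over all genes were 6.64% to 21%. With the chip as a block 1 of 17 was called for high-fat against low-fat, where 6.39% of all genes were called. This was the assembly chaperone Psmg3, which lay 0.39 ± 0.14 higher (limma adjusted p = 0.139 without and 0.0128 with the block). Psmg3 was also the 1 call with the block for bilberry against low-fat, against 3.3% of all genes. There it lay 0.35 ± 0.14 higher (limma adjusted p = 0.292 without and 0.0451 with the block). Nfe2l1 itself lay 0.39 ± 0.11 lower under blackcurrant than under açai (limma adjusted p = 0.0527, and 0.0231 with the block). That call was 1 of 17 against 3.59% of all genes. Pomp, the chaperone of the core particle, differed by 0.16 ± 0.10 between high-fat and low-fat and was not called.

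In the lists of autophagy and of cytosolic chaperones single genes were called; whether these lists differ from the ubiquitin list was not tested. Of 11 tested autophagy and lysosome genes, 1 was called for high-fat (3.73% of all genes), 2 for lingonberry (3.49%) and 2 for açai (7.25%), each against low-fat. For blackcurrant (2.48%) and bilberry (1.78%) against low-fat the count was 0. At an unadjusted p below 0.05 there were 2 for blackcurrant and 5 for bilberry, against 15.8% and 12.6% of all genes. With the block the calls were 2 for high-fat (6.39% of all genes), 2 for lingonberry (5.34%) and 2 for blackcurrant (4.6%). For bilberry there was 1 (3.3%) and for açai 3 (11.2%) in that fit. Gabarapl1, which coats the autophagosome, rose by 0.35 from low-fat to high-fat (limma adjusted p = 0.0261) and by 0.62 from low-fat to lingonberry (limma adjusted p = 1.98e-05). Map1lc3a, another such coat protein, rose by 0.70 from low-fat to lingonberry (limma adjusted p = 0.00479) and by 0.66 to açai (limma adjusted p = 0.00465). It also lay 0.54 above low-fat under blackcurrant and 0.48 under bilberry, called only with the block (limma adjusted p = 0.00745 and 0.0215). Atg7 rose by 0.41 from low-fat to açai (limma adjusted p = 0.0210). Between berry diets Gabarapl1 was higher under lingonberry than under blackcurrant (by 0.49, limma adjusted p = 0.00349) and açai (by 0.36, limma adjusted p = 0.0182). These calls were 1 of 11 genes in each pair, against 1.12% and 3.82% of all genes. Of 10 tested cytosolic chaperones, 1 was called for high-fat, 1 for lingonberry, 2 for blackcurrant (2.48% of all genes), 2 for açai and 0 for bilberry, each against low-fat. For bilberry 1 had an unadjusted p below 0.05, against 12.6% of all genes. The cochaperone gene Dnajb1 rose by 0.49 from low-fat to high-fat (limma adjusted p = 0.0459). Bag3 fell by 0.56 from low-fat to blackcurrant (limma adjusted p = 0.0159) and by 0.43 to açai (limma adjusted p = 0.0446). Hspb1 rose by 1.15 ± 0.35 from low-fat to açai (limma adjusted p = 0.0393). Hspa8 fell by 0.39 from low-fat to lingonberry (limma adjusted p = 0.0490) and by 0.40 to blackcurrant (limma adjusted p = 0.0475). No cytosolic chaperone was called between berry diets. Of 6 tested ubiquitin ligase genes limma called 0 in the fit without the block, with 0 to 2 at an unadjusted p below 0.05 in each comparison. Over all genes the unadjusted shares were 6.64% to 21%. With the block it called 1, Huwe1, for high-fat (6.39% of all genes), blackcurrant (4.6%) and açai (11.2%), each against low-fat. The differences were -0.37, -0.53 and -0.41, with limma adjusted p-values of 0.0223, 0.00143 and 0.00656 in that fit. These lists were chosen with earlier results of the same arrays known.

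Between the berries, limma called 0 of 38 genes when açai was set against the average of the remaining berry diets, where 3% of all genes were called, and 0 with the chip as a block, against 4.89%. At an unadjusted p below 0.05 there were 2, Psmd6 and Psmc2, against 15.4% of all genes. Psmd6, a subunit of the lid, lay 0.19 ± 0.08 lower under açai in 6 of 6 chips (limma adjusted p = 0.271). In the 6 pairs of berry diets limma also called 0 genes, and with the block 1, Psmc3 as given above. Without the block the shares of all genes were 0.224% for lingonberry against bilberry, 3.82% for lingonberry against açai, 0.214% for blackcurrant against bilberry, 2.05% for blackcurrant against açai and 1.04% for bilberry against açai. With the block they were 0.632%, 5.94%, 0.418%, 3.59% and 1.72% in that order. Proteasome genes at an unadjusted p below 0.05 numbered 0, 2, 2, 3 and 0 in these pairs and 2 for lingonberry against blackcurrant. Over all genes the shares were 9.28%, 17.6%, 9.83%, 13.9% and 11.3%, and 12.5% for lingonberry against blackcurrant. The genes concerned were Psmd5, Psmc3, Psmd6, Psmb3, Psmb10 and Psmc2, with differences of 0.15 to 0.38 in size.

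The 2 genes that share only the symbol gave no call either. Psmc3ip, whose product helps chromosomes pair in meiosis, lay 0.22 lower under lingonberry than under high-fat (limma adjusted p = 0.329). Psme3ip1, named after its binding to the activator Psme3, lay 0.22 higher in that comparison (limma adjusted p = 0.409).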

How the data were processed

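Liver RNA of 36 mice was hybridized to 36 arrays. The authors deposited raw intensity values, each beside its detection p-value, and a second table of processed log2 values. The sources used here do not give the software or normalization; no deposited log2 value lay more than 0.0501 from the one obtained here. The median raw intensity of an array ran from 81.2 to 103, and 14240 to 15670 of 45281 probes were detected. The number of arrays limits the precision.

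The function neqc (offset 16) of limma 3.58.1 in R 4.3.3 corrected the background, using the detection p-values to place it, and then quantile normalized and logged the intensities. The 17907 probes with a detection p below 0.05 on at least 6 of 36 arrays were tested by lmFit with a mean per diet on all arrays and eBayes, two-sided, with Benjamini-Hochberg adjustment over all probes tested. A gene enters by its brightest tested probe. Counts at unadjusted p use 0.05. The fit was tested on simulated data.

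Symbols came from the platform annotation, updated through a RefSeq table (GRCm38.p6, used for names and promoters), in which 36 of the 43 genes had a promoter. Of the tested probes, 15409 had 1 symbol; 18 probes with several symbols were left unnamed. The genes described by name are, by role, every gene called in a comparison, otherwise up to 3 per comparison by smallest p, the 6 of smallest p over all diets, those of extreme spread, those with several probes, those not tested and those that are no subunits; of other lists, called genes up to 4 per list and Psmb8 and Psmb9. Members and lists were chosen with earlier results of these data known. The figures were drawn with matplotlib 3.10.9.

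The labels name the chip of every array, and each chip holds 1 mouse of every diet. Deviations from the diet means correlated at a median of 0.11 for the 90 pairs of arrays on the same chip and -0.05 for the 540 on different chips, so the chip was taken as a shared batch. Values with the chip as a block are given where they change a call of a proteasome gene. For the other lists they are given for part of the calls only. Cages and litters are not named in the labels. The p-values set a difference of diet means against the spread between these mice, which includes that between chips in the fit without the block.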

Additional observations from a re-analysis of the deposited data

Results flagged for a closer look

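A diet's highest or lowest liver stood far from the nearest of the other 5 in 19 of 300 sets of 6 values examined, by Dixon's criterion at the 95% level, where chance alone flags about 1 in 20. Replicate 4 on açai stood high in Psmb10 (10.5), Psmb8 (10.2) and Psmb9 (10.4). Low-fat replicate 3 stood high in Psmc3 (9.50) and Psmd13 (10.7) and low in the mean of the non-ATPase subunits (-0.17, as a deviation from the mean over all arrays), and low-fat replicate 6 stood high in Psma8 (5.01). Bilberry replicate 3 stood high in Psmd4 (11.7) and low in Psmd8 (9.82) and in the dimmer probe of Psmd11 (6.85), for which blackcurrant replicate 3 was also low (6.61). Blackcurrant replicate 4 stood high in Psmb5 (9.33) and in the mean of the assembly chaperones (0.13). High-fat replicate 3 was low in Psmc6 (6.26) and high-fat replicate 1 in Psmd5 (5.50). Açai replicate 2 was low in Psmb4 (11.8) and açai replicate 3 in Psmd14 (9.42). Lingonberry replicate 6 stood high in the mean of all proteasome genes (0.13), and bilberry replicate 1 low in that of the ATPases (-0.13). The number of a replicate is also that of its chip. On chip 3 the mean of the non-ATPase subunits ran from -0.22 to -0.07 over the 6 diets. That of the alpha ring ran there from 0.11 to 0.33, and that of all proteasome genes from -0.05 to 0.03. The causes were not tested.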

How the results depend on the processing

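The count of proteasome genes called was 0 in every comparison of the fit reported, and the settings below changed it. With the chip as a replicate block it was 1 for high-fat against low-fat, 2 for blackcurrant and 1 for açai against low-fat, 1 over the pairs of berries and 2 over all 6 diets. With array weights it was 1 for high-fat and 1 for açai, each against low-fat. For blackcurrant against low-fat it was 2 with normexp (offset 50) and 2 with no background correction. Leaving out arrays gave 1 for high-fat against low-fat without high-fat replicate 1, without blackcurrant replicate 4 or without the 6 arrays of high pancreatic markers, and 0 to 1 for blackcurrant against low-fat when 1 chip was left out. With every tested probe of a gene it was 1 for high-fat, 1 for blackcurrant and 1 for açai against low-fat and 1 over all diets. With every probe and the replicate block it was 3, 3, 2 and 4 for these, 2 for lingonberry against high-fat, 1 for lingonberry against low-fat and 1 over the pairs of berries. The counts for blackcurrant, bilberry and açai against high-fat, for bilberry against low-fat and for açai against the other berries stayed 0 under every setting, and no difference of a gene examined changed its sign. The fits without the 6 arrays, without açai replicate 4 and with every probe under the block were chosen after seeing the data. The causes were not tested. Over all genes the block raised the calls from 383 to 657 for high-fat against low-fat, from 268 to 468 for lingonberry against high-fat, from 255 to 473 for blackcurrant against low-fat, from 745 to 1149 for açai against low-fat and from 945 to 1506 over all diets. With the block the standard error was smaller for 37 of 38 genes, by a median ratio of 0.86, against 0.93 over all genes. For dim probes the size of a difference depended on the background correction: with none, Psmd2 gave -0.19 in place of -0.55 for high-fat against low-fat, and Psmc3ip -0.08 in place of -0.22 for lingonberry against high-fat.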
